A study of Homo sapiens with 26 samples.

Results

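The regulators of G protein signalling (RGS) examined here were 10 listed genes of the family, RGS1, RGS2, RGS3, RGS10, RGS12, RGS13, RGS14, RGS16, RGS18 and RGS19, out of 58592 annotated genes in the files. They were taken by gene symbol, and the list was chosen with earlier results of these data known. The measurements are strand-specific RNA-seq of polyadenylated RNA, read from both ends, in 2 established human cell lines, OCI-Ly7 and SUDHL4. Each line comes from a diffuse large B cell lymphoma of germinal centre type. Both lines stably carried dCas9-KRAB, a nuclease-dead Cas9 fused to a repressor domain, delivered by lentivirus and driven by the SFFV promoter. Guide RNAs delivered by lentivirus then directed it to POU2AF1, to POU2F2 or, in the controls, to no gene. POU2AF1 encodes OCA-B, a B cell coactivator that binds DNA together with OCT1 or OCT2, and POU2F2 encodes OCT2. Control cells therefore carried the repressor and a guide too. The lines grew in different media, Iscove's for OCI-Ly7 and RPMI for SUDHL4, so line and medium cannot be told apart.

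After repeats of one library were merged there were 22 libraries. OCI-Ly7 gave 6 with POU2AF1 knockdown, 8 with POU2F2 knockdown and 4 controls (replicates 1, 7, 8 and 9). SUDHL4 gave 1 with POU2AF1 knockdown, 2 with POU2F2 knockdown and 1 control. All SUDHL4 libraries were labelled batch 1. In OCI-Ly7, POU2AF1 knockdown replicates 1 to 4 and control replicate 1 were batch 1, and the other libraries were batch 2, where sample names also carry a series mark (s0 to s3) for all but POU2F2 knockdown replicate 3. Replicate 3 of each OCI-Ly7 knockdown was labelled 48 h. So was an OCI-Ly7 control file that was left out. It nearly equalled the sum of 2 other control files, those merged as control replicate 1. No time is given for any other file. The labels do not say whether replicates were separate cultures, so p-values measure the spread between these libraries only. Libraries held 26325730 to 59431931 estimated reads in genes. Mitochondrial transcripts took 25.8% of them in OCI-Ly7 POU2AF1 knockdown replicate 1 and 7.04% to 14.0% in the other libraries. POU2AF1 itself stood at 14.8 to 47.7 TPM (transcript abundance scaled to the library total) in OCI-Ly7 with POU2AF1 knockdown, against 212 to 235 TPM in controls, and at 33.5 TPM against 207 TPM in SUDHL4. POU2F2 stood at 17.7 to 45.1 TPM in OCI-Ly7 with POU2F2 knockdown, against 63.5 to 117 TPM in controls, and at 11.3 and 17.9 TPM against 125 TPM in SUDHL4. The 6 B cell and 5 germinal centre marker genes were all expressed at a mean of 1 TPM or more in every group. Summed NK cell, myeloid and platelet marker levels reached at most 1.21 TPM in any library. Of 6 T cell markers, TRAC and CD3E had a mean of 1 TPM or more in every group. TRAC stood at 5.24 to 75.2 TPM and CD3E at 0.666 to 2.73 TPM over all libraries, and CD3D did not pass 0.402 TPM in any.

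RGS proteins carry a domain that binds the GTP-loaded alpha subunit of a heterotrimeric G protein and speeds its hydrolysis of GTP, which shortens signalling from the receptor upstream. In B cells, RGS1 and RGS13 are known to dampen responses to chemokines that guide cells through lymphoid follicles, and RGS13 is known as a gene of germinal centre B cells. RGS2, RGS16, RGS18 and RGS3 belong to the same subfamily as RGS1 and RGS13; RGS2 acts mainly on Gq, and RGS18 is best known from platelets and their precursors. RGS10, RGS12 and RGS14 form a further subfamily, in which RGS12 and RGS14 also bind inactive Gi alpha subunits through a GoLoco motif. RGS19, also called GAIP, belongs to a subfamily that acts on Gi and Gz.

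RGS18, RGS1, RGS13 and RGS2 lie in that order within 0.654 Mb on the long arm of chromosome 1, all on the plus strand, and RGS16 lies elsewhere on the same chromosome. RGS13 (ENSG00000127074) spans chr1:192636138-192660306 in the GENCODE annotation of GRCh38. The octamer ATGCAAAT, the DNA motif of OCT2, was searched on both strands in RefSeq promoters of GRCh38.p14, each from 250 bases before to 50 bases after a gene start. All 10 genes matched the promoter table, with 20 promoters. None of the 20 held the whole octamer, which was found in 1.77% of 35116 promoters. The shorter run ATGCAAA was found in 4.46% of all promoters and, among the listed genes, in those of RGS13 and RGS2. The other run of the same length, TGCAAAT, was found in 4.20% of all promoters and in that of RGS18. These runs are parts of the octamer and can overlap each other. The RGS13 and RGS18 promoters are shown because these genes had the lowest fold changes with POU2AF1 knockdown in OCI-Ly7, with the matching run in capitals (in RGS13 it reads on the minus strand). The run begins 36 bases before the RefSeq start of RGS13 (bases at chr1:192635897-192636146 shown, plus strand) and 60 bases before that of RGS18 (bases at chr1:192158212-192158461 shown, plus strand). The match in RGS2 lies 33 bases after its start. A match describes these letters and does not show binding.
RGS13: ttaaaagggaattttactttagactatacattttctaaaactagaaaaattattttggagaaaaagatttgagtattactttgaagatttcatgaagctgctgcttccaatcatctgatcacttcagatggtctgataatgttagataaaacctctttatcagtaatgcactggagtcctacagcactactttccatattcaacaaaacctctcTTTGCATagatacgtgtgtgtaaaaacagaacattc
RGS18: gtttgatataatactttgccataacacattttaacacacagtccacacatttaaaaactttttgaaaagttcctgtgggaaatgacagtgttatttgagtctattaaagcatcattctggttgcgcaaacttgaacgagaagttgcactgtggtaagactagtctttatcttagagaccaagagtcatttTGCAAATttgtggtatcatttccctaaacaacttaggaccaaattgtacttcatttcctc

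Levels differed widely among the 10 genes. RGS13 had the highest mean TPM in each of the 6 groups, and its range overlapped that of the next gene only in OCI-Ly7 with POU2AF1 knockdown, where RGS19 came next. In the OCI-Ly7 controls RGS13 averaged 222 ± 22 TPM (SD, n = 4) and RGS19, RGS14, RGS10 and RGS16 followed at means of 50.01, 36.1, 28.2 and 25.6 TPM, an order in which neighbours overlapped. RGS2 and RGS3 came next, with overlapping ranges, at means of 12.9 and 10.6 TPM. RGS12, RGS18 and RGS1 were low there, at 2.17, 1.31 and 0.510 TPM. In the SUDHL4 control the order began with RGS13 at 201 TPM and RGS10 at 133 TPM, and ended with RGS1 at 1.75 TPM and RGS12 at 1.70 TPM. The 10 genes together summed to 180 to 305 TPM in OCI-Ly7 with POU2AF1 knockdown, 324 to 402 TPM with POU2F2 knockdown and 352 to 409 TPM in controls. Without RGS13 these sums were 127 to 236, 148 to 193 and 150 to 199 TPM, and the 3 ranges overlapped. RGS13 was 22.6% to 41.0% of the sum with POU2AF1 knockdown, 45.0% to 60.0% with POU2F2 knockdown and 50.6% to 60.2% in controls.

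**Figure D1:**
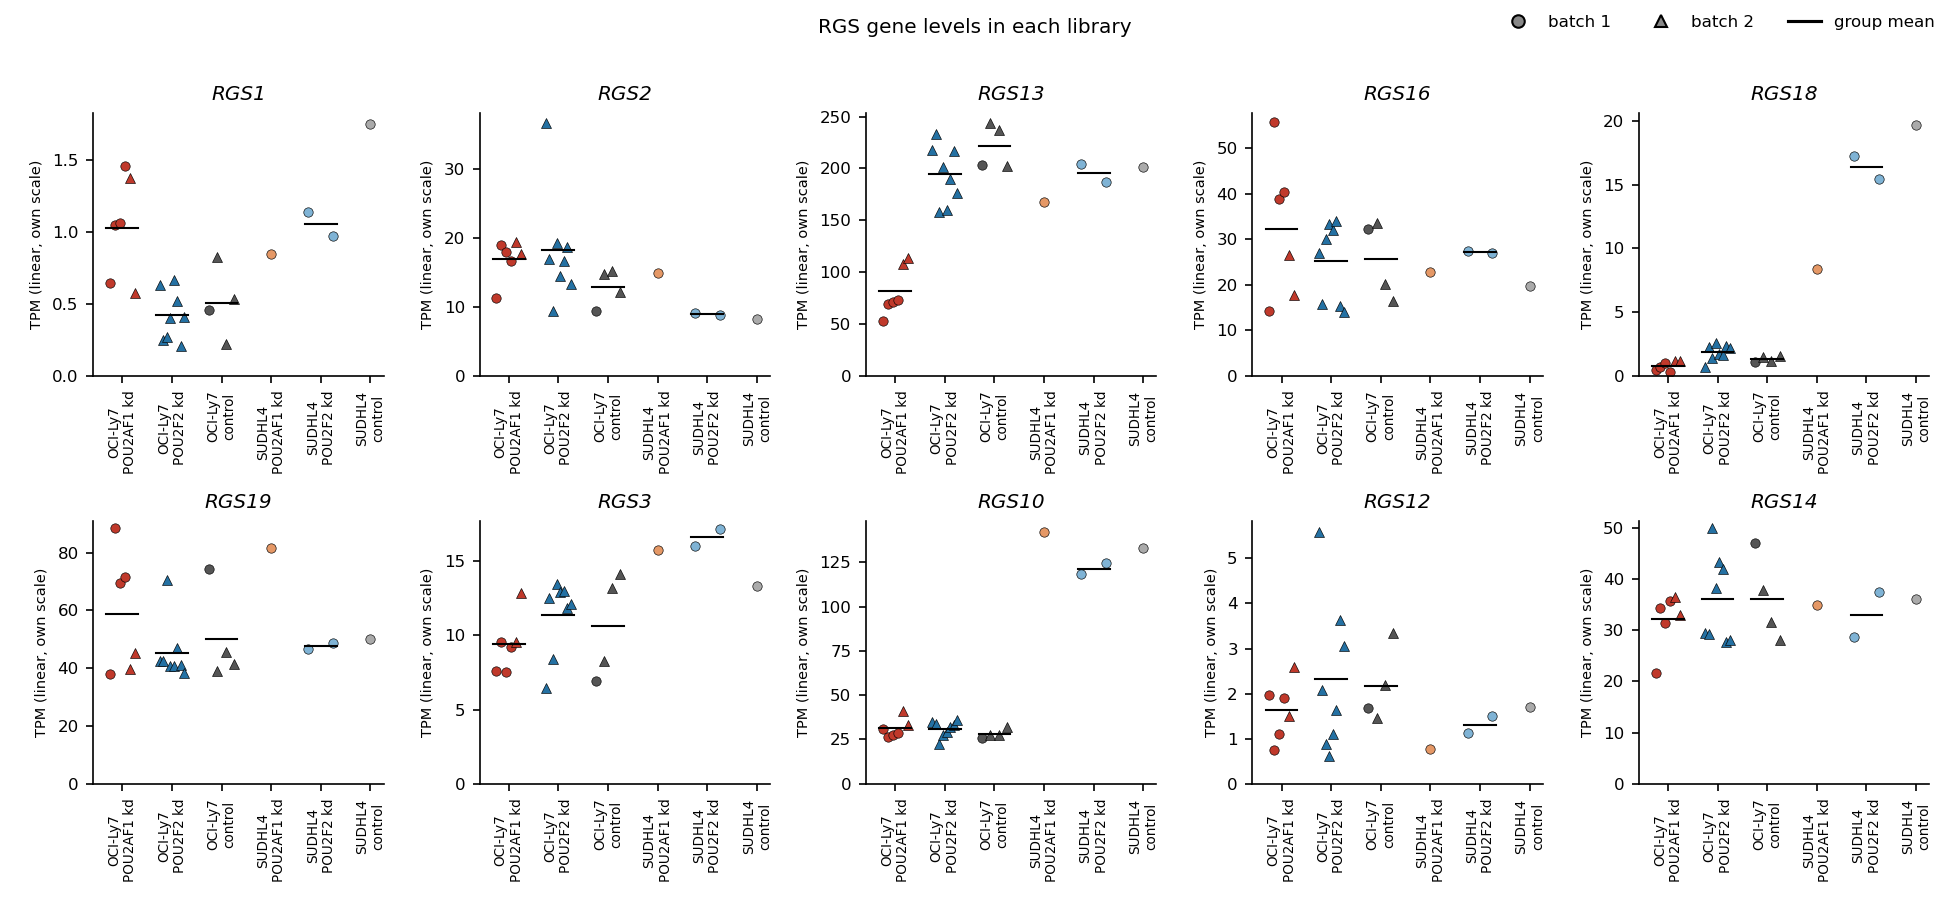
Level of each of the 10 genes in each library (TPM, linear axis from 0, with its own scale per gene). Circles are batch 1 and triangles batch 2, and the line is the group mean where a group has over 1 library. RGS13 was at 52.5 to 114 TPM in OCI-Ly7 with POU2AF1 knockdown, below all 4 OCI-Ly7 controls, and RGS10 and RGS18 stood higher in every SUDHL4 library than in any OCI-Ly7 library.

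The first question was which of these genes changed when POU2AF1 was knocked down in OCI-Ly7. RGS13, which is known to limit chemokine receptor signalling in germinal centre B cells, fell. It stood at 52.5, 69.0, 71.2, 73.5, 108 and 114 TPM in the 6 knockdown libraries, against 203, 244, 237 and 202 TPM in the 4 controls. All 6 knockdown libraries were lower than all controls, and the 2 highest of them, 108 and 114 TPM, were the batch 2 libraries. The log2 fold change was -1.22 ± 0.14 (SE), with an adjusted p of 0.00015 (edgeR's quasi-likelihood test with a batch term, Benjamini-Hochberg over 16001 genes). RGS13 was the only one of the 10 genes called at an adjusted p under 0.05, where 142 of the 16001 genes (0.887%) were called, 97 of them (0.606%) lower. In batch 1 alone, with 4 knockdown libraries and 1 control, its log2 fold change was -1.48 (adjusted p = 0.028), and in batch 2 alone, with 2 and 3, it was -1.01 (adjusted p = 0.15). Without control replicate 1, the only control of batch 1, it was -1.01 and was no longer called (adjusted p = 0.060). In bulk RNA, less transcript per cell and fewer cells that hold it cannot be told apart. Germinal centre markers moved with RGS13, and their part in its change was not tested. Among them BCL6 and MYBL1 were called lower with POU2AF1 knockdown (log2 fold changes -1.44 and -1.40), while MME and S1PR2 were not called (0.45 and -0.90). The summed level of the 5 markers was 171 to 219 TPM with knockdown, against 295 to 372 TPM in controls.

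RGS18, known from platelets, had 14 to 20 reads in each POU2AF1 knockdown library and was near the low end of what can be counted. It stood at 0.447, 0.682, 0.975, 0.310, 1.13 and 1.18 TPM with knockdown, against 1.04, 1.44, 1.17 and 1.57 TPM in controls. In 4 of the 6 knockdown libraries, the 4 of batch 1, it was lower than in all controls, and the batch 2 libraries lay within the control range. Its log2 fold change was -1.04 ± 0.30 (adjusted p = 0.16), and RGS18 was called when each series mark entered as a block (-1.04, adjusted p = 0.031). RGS2, which acts on Gq, stood at 11.4, 19.0, 18, 16.6, 19.4 and 17.7 TPM with POU2AF1 knockdown, against 9.43, 14.8, 15.3 and 12.1 TPM in controls. RGS2 was higher than all controls of both batches in 5 of 6 knockdown libraries. The exception was replicate 1, the library with the high mitochondrial share, which at 11.4 TPM was above the batch 1 control at 9.43 TPM. Within each batch, RGS2 was higher in every knockdown library than in every control, with 1 control in batch 1. Its log2 fold change of 0.58 ± 0.30 was not called (adjusted p = 0.90), and with series marks as blocks it was 0.51 (adjusted p = 0.023). That fit left 10 residual degrees of freedom, called 894 genes (5.59%) and called 3 of the 10 listed genes, RGS13, RGS18 and RGS2.

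The other 7 genes were not called with POU2AF1 knockdown in OCI-Ly7 in either fit. RGS1, the other chemokine-dampening member, had 0.573 to 1.46 TPM with knockdown, against 0.221 to 0.824 TPM in controls, from 5 to 52 reads a library. Its log2 fold change was 0.92 ± 0.50. RGS10 had 26.4 to 40.8 TPM with knockdown, against 25.7 to 32.3 TPM in controls (log2 fold change 0.30 ± 0.18). RGS14 had 21.6 to 36.5 TPM with knockdown, against 28.1 to 47.0 TPM in controls (-0.28 ± 0.22). RGS12 had 0.740 to 2.59 TPM with knockdown, against 1.46 to 3.34 TPM in controls (-0.42 ± 0.52). RGS3 had 7.56 to 12.9 TPM with knockdown, against 6.91 to 14.1 TPM in controls, and RGS16 had 14.3 to 55.7 TPM, against 16.5 to 33.6 TPM. RGS19 had 38.1 to 88.4 TPM with knockdown, against 38.9 to 74.2 TPM in controls. RGS3, RGS16 and RGS19 had log2 fold changes of 0.13 ± 0.24, 0.03 ± 0.36 and -0.09 ± 0.25. The median over the 10 genes was -0.03, against -0.004 over all genes tested.

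With POU2F2 knockdown in OCI-Ly7, none of the 10 genes was called, and neither was any of the 16001 genes tested (0%). At an unadjusted p under 0.05 there were 283 genes, one of them RGS13, which is fewer than that threshold passes by chance alone. DESeq2 called 5 genes and the fit with series marks as blocks called 13 (0.0812%). POU2F2 itself missed the threshold in this fit (log2 fold change -1.57 ± 0.24, adjusted p = 0.056). RGS13 stood at 218, 233, 158, 202, 160, 190, 217 and 176 TPM in the 8 knockdown libraries, against 203, 244, 237 and 202 TPM in controls. In 5 of the 8 it was lower than all controls and in none higher. The log2 fold change of RGS13 was -0.27 ± 0.13 (adjusted p = 1). RGS2 ranged from 9.42 to 36.7 TPM around a median of 16.8 TPM, against 9.43 to 15.3 TPM in controls, with a log2 fold change of 0.39 ± 0.26. In 5 of the 8 libraries RGS2 was above all controls and in 1 below. RGS18 ranged from 0.724 to 2.55 TPM around a median of 1.97 TPM, against 1.04 to 1.57 TPM in controls, with a log2 fold change of -0.06 ± 0.28. In TPM it was above all controls in 6 of the 8 libraries and below in 1. Its mean was 1.85 TPM, against 1.31 TPM in controls, so the scales differ in direction, and the source of this was not tested. The other 7 genes had log2 fold changes between -0.01 and 0.13. RGS10 ranged from 22.3 to 36.2 TPM with POU2F2 knockdown, against 25.7 to 32.3 TPM in controls. RGS14 ranged from 27.6 to 49.9 TPM, against 28.1 to 47.0 TPM, and RGS3 from 6.46 to 13.5 TPM, against 6.91 to 14.1 TPM. The control range lay within the knockdown range for RGS2, RGS10, RGS12, RGS14, RGS16 and RGS18, and not for RGS1, RGS3, RGS13 and RGS19. RGS1 stood at 0.209 to 0.665 TPM with POU2F2 knockdown, against 0.221 to 0.824 TPM in controls, from 5 to 27 reads a library. Both knockdowns were set against the same 4 controls.

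The knockdowns were also compared with each other in OCI-Ly7. RGS13 was higher with POU2F2 than with POU2AF1 knockdown, by 0.94 ± 0.14 on the log2 scale (adjusted p = 0.0083), and all 8 POU2F2 libraries (158 to 233 TPM) were above all 6 POU2AF1 libraries (52.5 to 114 TPM). It was the one gene of the 10 called, with 26 of 16001 genes called in all (0.162%), 0.137% higher. In batch 2 alone, where both knockdowns have libraries, the log2 difference of RGS13 was 0.83 (adjusted p = 0.36), and without control replicate 1 it was 0.84 (adjusted p = 0.13). RGS18 differed by 0.97 ± 0.32 (adjusted p = 0.62).

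**Figure D2:**
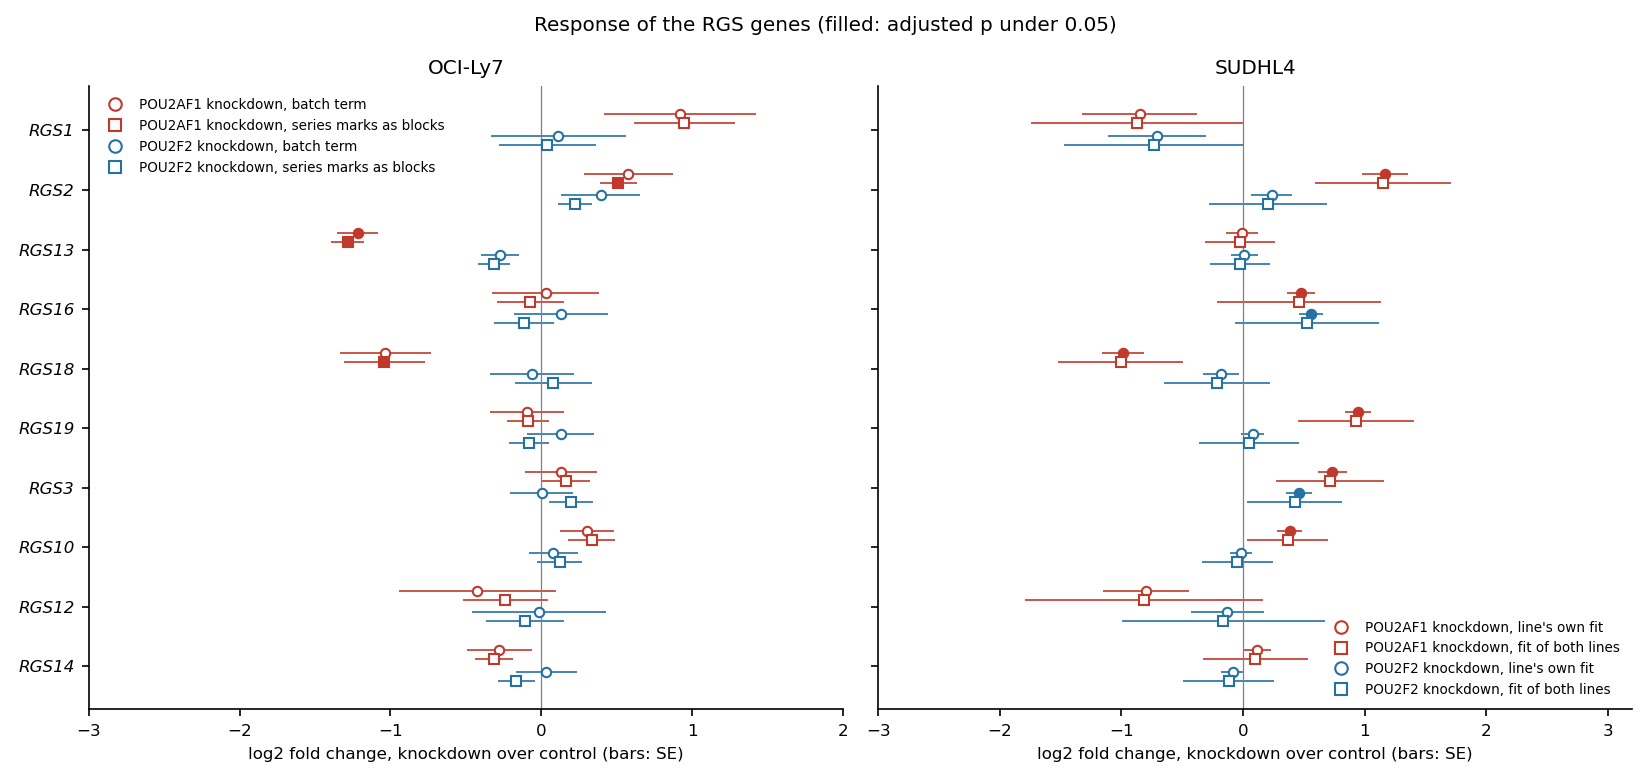
Log2 fold change of each gene, knockdown over control, with its SE. Circles are the values of the text and squares a second fit (series marks as blocks in OCI-Ly7, both lines together in SUDHL4); filled symbols passed an adjusted p of 0.05. In OCI-Ly7, RGS13 was called with POU2AF1 knockdown in both fits, and in SUDHL4 no gene was called in the fit of both lines.

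Some of these genes differed between OCI-Ly7 libraries of different batch or series mark. RGS16, a regulator acting on Gi and Gq, stood at 26.5 to 34.0 TPM in the 5 libraries marked s0, at 15.3 to 20.2 TPM in the 4 marked s2 and at 14.1 and 16.5 TPM in the 2 marked s3, and each of these sets held knockdown and control libraries. In batch 1 RGS16 ranged from 14.3 to 55.7 TPM, and replicate 1 of the POU2AF1 knockdown was the lowest. RGS12 stood at 0.620 to 1.65 TPM in s0, 2.08 to 3.63 TPM in s2, 3.06 and 3.34 TPM in s3 and 5.58 TPM in the single s1 library. RGS19 stood at 69.5 to 88.4 TPM in 3 of the 4 batch 1 POU2AF1 knockdown libraries and 74.2 TPM in the batch 1 control. In POU2AF1 knockdown replicate 1 it was at 38.1 TPM. In the batch 2 libraries with a series mark RGS19 was at 38.2 to 47.0 TPM, and in the one without a mark, POU2F2 knockdown replicate 3, at 70.6 TPM. RGS3 stood at 6.91 to 9.54 TPM in batch 1, 6.46 TPM in s1, 11.9 to 13.2 TPM in s2 and 12.1 and 14.1 TPM in s3, while s0, at 8.26 to 13.5 TPM, overlapped both batch 1 and s2. What the series marks stand for is not given in the labels, and their part in these levels was not tested apart from their use as blocks.

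**Figure D3:**
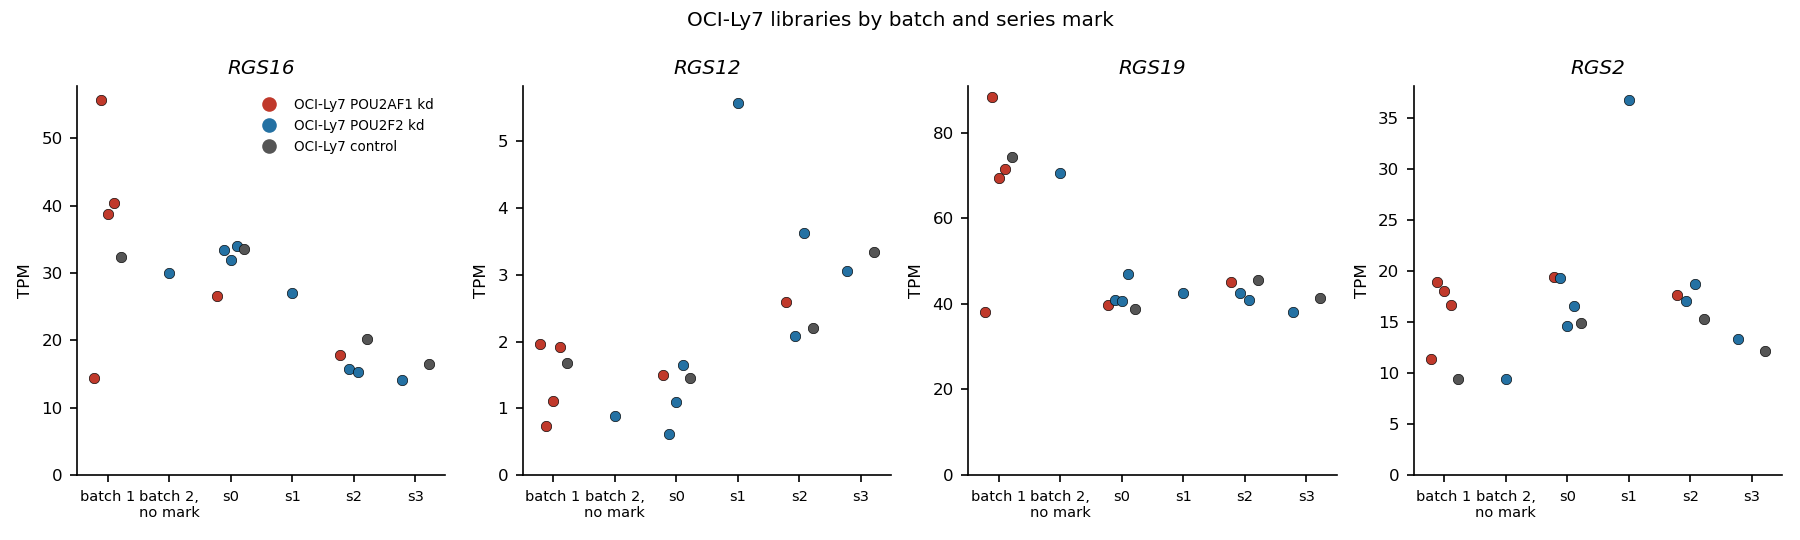
Levels (TPM, linear axis from 0) of RGS16, RGS12, RGS19 and RGS2 in the 18 OCI-Ly7 libraries, by batch and series mark, with POU2AF1 knockdown, POU2F2 knockdown and control in colour. RGS16 was at 26.5 to 34.0 TPM in s0 and at 15.3 to 20.2 TPM in s2 whatever the group, and RGS2 had one library at 36.7 TPM, the only one marked s1.

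In SUDHL4 the POU2AF1 knockdown was 1 library against 1 control, and the spread came from the 2 POU2F2 knockdown libraries, with 1 residual degree of freedom. The lone libraries are thus assumed to vary as those 2 did, which were very close (a biological coefficient of variation of 0.0779, against 0.297 in OCI-Ly7). In this fit 6 of the 10 genes were called, where 36.8% of 16973 genes were called, 18% higher and 18.8% lower. Each of the 6 calls was lost in the fit of both lines, which takes its spread mostly from OCI-Ly7 and called 314 of 18918 genes (1.66%) and none of the 10. None was called either when 1 of the POU2F2 knockdown libraries was left out and the spread was pooled with OCI-Ly7. Marker levels moved in the same libraries, and their part in the calls was not tested. The 6 B cell markers were all called higher with POU2AF1 knockdown and summed to 3626 TPM, against 1891 TPM in the control, and all 3 T cell markers tested were called higher. TRAC stood at 33.0 TPM with knockdown against 5.24 TPM, CD3E at 2.11 TPM against 1.06 TPM, and CD4 at 0.108 TPM, where the control was listed at 0. CD3D was listed at 0 in all SUDHL4 libraries.

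RGS19 stood at 81.4 TPM in the SUDHL4 library with POU2AF1 knockdown, against 50.03 TPM in the control. Its log2 fold change was 0.95 ± 0.11 (adjusted p = 9.75e-09), and in the fit of both lines 0.93 ± 0.48 (adjusted p = 0.46). RGS2 stood at 14.9 TPM with knockdown, against 8.20 TPM in the control (log2 fold change 1.17 ± 0.19, adjusted p = 5.73e-06, and adjusted p = 0.42 in the fit of both lines). RGS3 was called higher too, at 15.8 TPM with knockdown against 13.3 TPM in the control (0.74 ± 0.12). RGS16 was at 22.9 TPM against 19.7 TPM (0.48 ± 0.11), and RGS10 at 142 TPM against 133 TPM (0.38 ± 0.10). RGS18 was called lower, at 8.36 TPM with knockdown against 19.6 TPM in the control, by -0.99 ± 0.17 on the log2 scale (adjusted p = 0.000104, and adjusted p = 0.46 in the fit of both lines). The fitted fold changes of these genes stand above their TPM ratios. Over all genes tested the median log2 TPM ratio was -0.28 and the median fitted log2 fold change 0.01. The gap was wider than this for RGS3, and its source was not tested. RGS13 stood at 168 TPM with knockdown against 201 TPM in the control, with a fitted log2 fold change of -0.01 ± 0.13. RGS14, RGS1 and RGS12 were not called (0.12 ± 0.11, -0.85 ± 0.48 and -0.80 ± 0.35). Germinal centre markers summed to 333 TPM in this library, against 652 TPM in the control. Of the 5, BCL6, MYBL1 and MME were called lower and 1 was called higher.

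With POU2F2 knockdown in SUDHL4, 2 of the 10 genes were called in the line's own fit, where 7.35% of genes were called, 4.79% higher. RGS16 stood at 27.5 and 27 TPM, against 19.7 TPM in the control (log2 fold change 0.56 ± 0.10, adjusted p = 0.00028). RGS3 stood at 16.0 and 17.2 TPM, against 13.3 TPM (0.46 ± 0.11, adjusted p = 0.0047). In the fit of both lines neither was called (adjusted p = 1 for both RGS16 and RGS3, with 0.0951% of genes called). Marker levels moved here too, and their part in the calls was not tested. Called higher were 5 of the 6 B cell markers (sums of 2701 and 2773 TPM with knockdown, against 1891 TPM in the control) and all 3 T cell markers tested, with TRAC at 17.3 and 19.4 TPM against 5.24 TPM. Germinal centre markers summed to 465 and 535 TPM, against 652 TPM, with 2 of the 5 called lower and 1 higher. RGS13 was at 204 and 187 TPM against 201 TPM, and RGS19 at 46.8 and 48.8 TPM against 50.03 TPM, with log2 fold changes of 0.01 ± 0.11 and 0.08 ± 0.09. RGS18 was at 17.3 and 15.4 TPM against 19.6 TPM (-0.18 ± 0.15), RGS2 at 9.12 and 8.80 TPM against 8.20 TPM (0.23 ± 0.17) and RGS10 at 118 and 125 TPM against 133 TPM (-0.01 ± 0.09). Between the knockdowns in SUDHL4, 5 of the 10 genes were called, where 26.2% of all genes were (12.4% lower and 13.8% higher). RGS19, RGS2, RGS10 and RGS3 were lower with POU2F2 than with POU2AF1 knockdown (-0.87, -0.93, -0.40 and -0.28 on the log2 scale) and RGS18 was higher (0.81). The fit of both lines called none of these, and 0.196% of all genes. This comparison shares its POU2AF1 library with the one against the control.

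Whether the response to POU2AF1 knockdown differed between the lines was tested as an interaction in the fit of both lines. RGS13 fell in OCI-Ly7 and had a log2 fold change of -0.03 in SUDHL4 in that fit. The difference, OCI-Ly7 minus SUDHL4, was -1.20 ± 0.32 and missed the threshold (adjusted p = 0.093, with 0.798% of 18918 genes called). DESeq2 called it (adjusted p = 0.015), and so did a fit with series marks as blocks that was chosen after seeing the data (-1.27, adjusted p = 0.0042, with 10.3% of genes called). RGS19, with log2 fold changes of -0.10 in OCI-Ly7 and 0.93 in SUDHL4, differed by -1.03 ± 0.53 (adjusted p = 0.54), and by -1.03 with series marks as blocks (adjusted p = 0.035). RGS18 had log2 fold changes of -1.05 in OCI-Ly7 and -1.01 in SUDHL4, neither of them called in that fit, and the difference was -0.04 ± 0.52. For the response to POU2F2 knockdown none of the 10 genes was called (0.0106% of genes), with differences from -0.43 for RGS3 to 0.85 for RGS1.

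**Figure D4:**
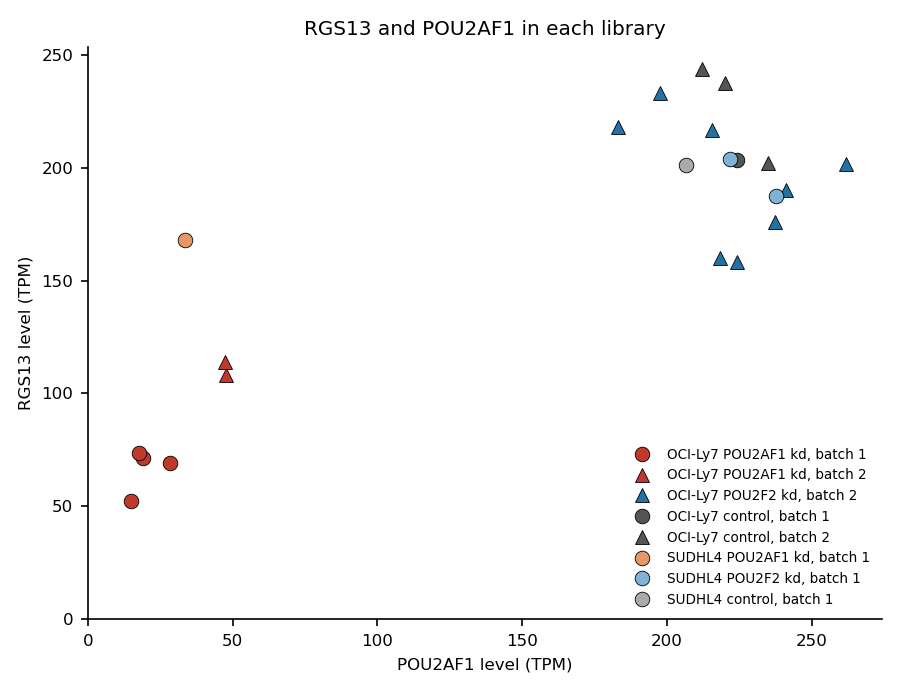
RGS13 level against POU2AF1 level (TPM, linear axes from 0) in each of the 22 libraries, by group and batch. The 6 OCI-Ly7 libraries with POU2AF1 knockdown lie at 52.5 to 114 TPM of RGS13, while the SUDHL4 library with POU2AF1 knockdown, at 33.5 TPM of POU2AF1, lies at 168 TPM of RGS13.

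The genes whose log2 CPM values (counts scaled to library size) were most like those of RGS13 over the 18 OCI-Ly7 libraries were POU2AF1 itself (Pearson r = 0.942), NEDD9 (0.940), EAF2 (0.938), MILR1 (0.936) and IL4R (0.935), out of 16000 genes. These libraries share the knockdown groups and batches, and the 6 with POU2AF1 knockdown lie apart. For r within groups, counts were scaled to the library total alone, without the TMM factors (edgeR's scaling between libraries) used over the 18. The library with the 25.8% mitochondrial share is among the 6, and its part in these r values was not tested. Within those 6 libraries, the r of POU2AF1 with RGS13 was 0.885, with the 4 batch 1 libraries lowest in both, and within the other 12 it was -0.440. For NEDD9 the r was 0.938 within the 6 and 0.504 within the 12, and for EAF2 it was 0.909 and 0.498. MILR1 had an r of 0.883 within the 6 and 0.168 within the 12, and IL4R had 0.831 and 0.274.

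Control cells of the lines differed in 2 of the 10 genes, where 23.5% of 18918 genes were called, 12.5% lower. RGS18 stood at 1.04 to 1.57 TPM in OCI-Ly7 controls, against 19.6 TPM in the SUDHL4 control, a log2 difference of -4.55 ± 0.42 (adjusted p = 1.44e-07). RGS10, a small regulator of Gi signalling, stood at 25.7 to 32.3 TPM in OCI-Ly7 controls, against 133 TPM in SUDHL4 (-2.57 ± 0.27, adjusted p = 7.89e-07). Every SUDHL4 library was above every OCI-Ly7 library for both genes. The platelet and megakaryocyte markers PF4, PPBP, ITGA2B and GP9 summed to 0.134 to 0.279 TPM in OCI-Ly7 controls and 0.388 TPM in the SUDHL4 control, and 3 of the 4 were at 0 in each. RGS13 differed by -0.50 ± 0.24 (adjusted p = 0.15), RGS3 by -0.91 ± 0.38 and RGS1 by -1.81 ± 0.75, and RGS14, RGS12, RGS2, RGS19 and RGS16 by -0.07 to 0.70. In TPM, RGS13 was higher in all 4 OCI-Ly7 controls (202 to 244 TPM) than in the SUDHL4 control (201 TPM). For RGS13 the scales thus differ in direction, and the source of this was not tested. The line contrast rests on 1 SUDHL4 control. RGS1 passed the threshold without OCI-Ly7 POU2AF1 knockdown replicate 6 or control replicate 7 (adjusted p = 0.048 and 0.049), and RGS3 without POU2F2 knockdown replicate 1 (adjusted p = 0.030).

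Transcript estimates showed which forms carried these levels, with the limit that forms of one gene share most of their sequence. RGS13-202, annotated as a processed transcript, held 57.2 ± 18.4 TPM in OCI-Ly7 with POU2AF1 knockdown (SD, n = 6), 138 ± 22.1 TPM with POU2F2 knockdown (n = 8) and 167.5 ± 19.7 TPM in controls (n = 4). The protein-coding RGS13-201 held 18.5 ± 6.33, 43.3 ± 6.90 and 46.1 ± 6.79 TPM in the same order. RGS13-202 took 70.3%, 71.2% and 75.5% of the gene's TPM in these groups and RGS13-201 took 22.7%, 22.3% and 20.8%, and the mean of both forms was lower with POU2AF1 knockdown than in controls. In SUDHL4, RGS13-201 held 48.8 TPM with POU2AF1 knockdown against 51.2 TPM in the control, and RGS13-202 held 99.5 TPM against 135 TPM.

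RGS19-202, protein-coding, held 45.0 TPM in SUDHL4 with POU2AF1 knockdown, against 25 TPM in the control. RGS19-201, also protein-coding, held 18 TPM with that knockdown, against 13.6 TPM in the control. In each OCI-Ly7 group its mean was the larger of the 2 forms, with overlapping SDs. In OCI-Ly7 controls it held 22.8 ± 6.37 TPM, against 21.3 ± 6.55 TPM for RGS19-202 (SD, n = 4). RGS10-202 held 92.05% of RGS10 TPM in the SUDHL4 control and 70.8% in OCI-Ly7 controls, where RGS10-201 held 25.85%. In the SUDHL4 libraries with a knockdown RGS10-201 was listed at 0. RGS16 had 1 annotated transcript in the files. Of the 4 listed genes of the chromosome 1 cluster, each is overlapped on the opposite strand by the lincRNA AL390957.1, which did not pass 1.75 TPM in any library. MIR6813 lies within RGS19 on the same strand, at up to 6.53 TPM.

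**Figure D5:**
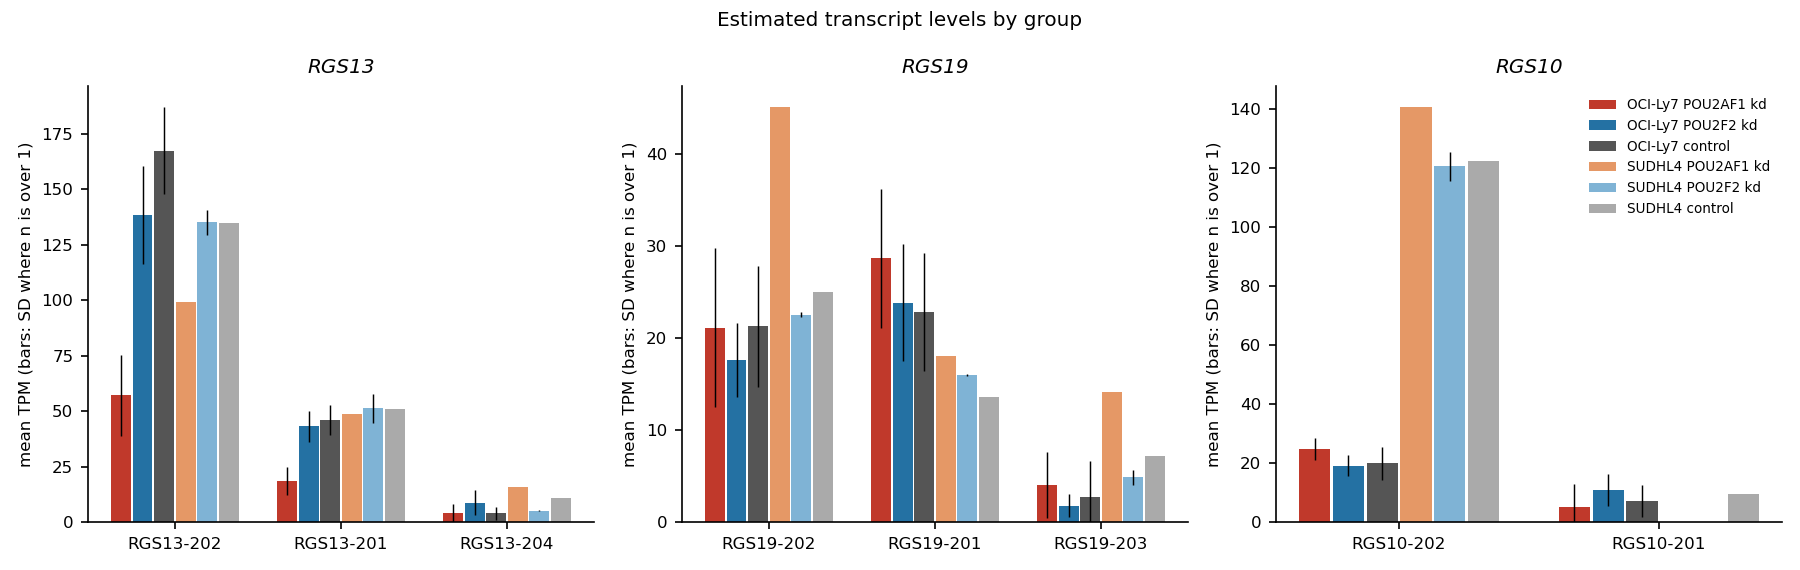
Mean estimated level (TPM, linear axis from 0) of the leading annotated transcripts of RGS13, RGS19 and RGS10 in the 6 groups, with the SD where a group has over 1 library. RGS13-202 averaged 57.2 TPM in OCI-Ly7 with POU2AF1 knockdown and 167.5 TPM in OCI-Ly7 controls, and RGS10-202 was highest in SUDHL4.

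The rest of the pathway was described from lists of G protein subunits, receptors, other regulators and effectors. Of 14 further RGS genes, 3 had enough reads to test in OCI-Ly7 and 5 in SUDHL4. RGS9, best known from photoreceptors and striatum, was the highest of them, at 9.78 to 13.9 TPM in OCI-Ly7 controls and 56.1 TPM in the SUDHL4 control (log2 difference -2.71 ± 0.28, adjusted p = 4.86e-07). With POU2AF1 knockdown in SUDHL4, RGS9 was called on counts (log2 fold change 0.58, adjusted p = 2.71e-05), but its level was 54.6 TPM with knockdown against 56.1 TPM in the control, so the scales differ in direction. RGS8 was called higher with POU2F2 knockdown there (1.33, adjusted p = 9.4e-07), at 4.48 and 4.5 TPM against 1.73 TPM. Neither was called in the fit of both lines.

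With POU2AF1 knockdown in OCI-Ly7, 1 of 11 tested beta and gamma subunits and 1 of 16 receptors were called, where 0.887% of all genes were. GNB3, a G protein beta subunit, stood at 0.767 to 5.92 TPM with knockdown, against 22.4 to 30.8 TPM in controls, a log2 fold change of -2.86 ± 0.27 (adjusted p = 2.1e-05). All 6 knockdown libraries were below all controls. S1PR1, a Gi-coupled receptor for sphingosine 1-phosphate that draws lymphocytes out of tissue, stood at 1.25 to 4.87 TPM with knockdown, against 0.0269 to 0.413 TPM in controls (3.17 ± 0.72, adjusted p = 0.042). The S1PR1 call was lost in 11 of the 18 fits that left out 1 library (adjusted p of up to 0.72, without control replicate 1) and in batch 2 alone (2.65, adjusted p = 1). None of 8 alpha subunits, 13 other regulators, 16 effectors or 3 further RGS genes was called. GNAI2, a Gi alpha subunit, stood at 144 to 185 TPM with POU2AF1 knockdown, against 172 to 201 TPM in controls. With POU2F2 knockdown in OCI-Ly7 no gene of these lists was called, and GNB3 was at 12.4 to 26.7 TPM. Between the knockdowns in OCI-Ly7, GNB3 was the one called, 2.08 ± 0.29 higher with POU2F2 than with POU2AF1 knockdown (adjusted p = 0.0035, and 0.051 at most when 1 library was left out). Over all genes 0.162% were called in that comparison.

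With POU2AF1 knockdown in SUDHL4, 13 of 17 tested receptors were called higher and none lower, with a median log2 fold change of 1.20 over the 17 against 0.01 over all genes. These are calls from 1 library against 1, and in the fit of both lines only LPAR5 and P2RY10 of the 13 were called, as they were when either POU2F2 knockdown library was left out. P2RY11, CNR2, LPAR5 and GPR174 had the smallest p, with log2 fold changes of 2.05, 1.20, 1.20 and 1.25. LPAR5, a receptor for lysophosphatidic acid, had an adjusted p of 0.017 in the fit of both lines, at 18.1 TPM with knockdown against 9.35 TPM. In the same fit the adjusted p was 0.34 for P2RY11, 0.33 for CNR2 and 0.24 for GPR174. GNB3 fell there as well, to 2.82 TPM with knockdown, against 17.6 TPM in the control, by -2.31 ± 0.17 on the log2 scale (adjusted p = 0.048 in the fit of both lines, and 0.066 when either POU2F2 knockdown library was left out). Of the other lists, 2 of 8 alpha subunits were called lower (GNAZ and GNAI3), 1 of 11 beta and gamma subunits higher (GNG7) and 3 lower (GNB3, GNG5 and GNG2), 2 of 15 other regulators higher and 3 lower, and 7 of 16 effectors higher and 2 lower, shares to be read against the 36.8% called over all genes. GPSM2 fell by 0.95 and GPSM3 was 0.70 higher among the other regulators, and PLCB2, a phospholipase of Gq signalling, was 1.11 higher among the effectors. With POU2F2 knockdown in SUDHL4, 8 of 17 receptors were called higher, 1 of 8 alpha subunits lower, 1 of 11 beta and gamma subunits higher and 2 lower, none of 15 other regulators and 1 of 16 effectors higher, and the fit of both lines called none of them. In that comparison 7.35% of all genes were called in the line's own fit, 4.79% higher. Between the knockdowns in SUDHL4, 10 of the 17 receptors were called lower and 1 higher with POU2F2 knockdown, where 12.4% of all genes were called lower and 13.8% higher. The fit of both lines called none of the 11, with the lowest adjusted p at 0.094 for P2RY10.

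The response to POU2AF1 knockdown differed between the lines for 2 of 18 receptors, P2RY10 (-3.95 ± 0.59, OCI-Ly7 minus SUDHL4) and LPAR5 (-1.26 ± 0.27), and for 1 of 18 effectors, PIK3R5 (-2.89 ± 0.57). Over all genes 0.798% were called in this test. Without OCI-Ly7 control replicate 1 the adjusted p was 0.11 for LPAR5 and 0.058 for PIK3R5, and LPAR5 was also lost without control replicate 8 or POU2AF1 knockdown replicate 5. P2RY10 was at 4.35 to 7.75 TPM with knockdown against 8.16 to 12.8 TPM in controls in OCI-Ly7, and at 1.00 TPM against 0.0918 TPM in SUDHL4. GNB3 did not pass that test (-0.55 ± 0.62, adjusted p = 0.885). Between control cells of the lines, where 23.5% of all genes were called, 11 of 18 effectors were called, among them PLCB1 at 8.06 to 11.2 TPM in OCI-Ly7 and 0.104 TPM in SUDHL4, and PLCB2 at 0 to 0.0628 TPM in OCI-Ly7 and 34.3 TPM in SUDHL4. Further calls were made for 8 of 16 other regulators, 5 of 18 receptors, 3 of 12 beta and gamma subunits and 2 of 10 alpha subunits, the last 3 of these shares being near that of all genes.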

How the data were processed

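RNA was extracted with Trizol and made into stranded mRNA libraries, per the labels. The tools named are fastp and Salmon 1.5.1, with the build GRCh38.p13, per the submitters' processing notes, which give neither their settings nor the annotation release. The deposited tables give estimated counts and TPM per transcript, in the layout of the authors' Salmon output. Of 227912 transcripts per file, 205964 matched GENCODE 29 by identifier, with 98.36% to 98.89% of reads, and the other 21948 were not used. Gene values are sums over matched transcripts, for TPM and for estimated counts, with the counts then rounded to whole numbers.

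The 26 files gave 22 libraries. Pairs of one group whose counts differed by no more than 1.5 times sampling noise were counted as 1 library. The ratio was 1.12 to 1.15 for the pairs merged, against at least 2.39 for pairs kept apart. One OCI-Ly7 control file equalled the sum of 2 others within 2 reads for 92.92% of 26871 genes and was left out. Its ratios to those 2 files were 0.376 and 0.378. Spread and intervals on reads cover counting and library error only, since molecules were not tagged.

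Tests used edgeR 4.0.16 (R 4.3.3): TMM scaling, a filter at a minimum count of 10, the quasi-likelihood test and Benjamini-Hochberg adjustment over all genes tested, with calls at 0.05. OCI-Ly7 was fitted with a batch term. SUDHL4 was fitted alone. Interactions and the line contrast came from a fit of both lines. Alternatives were other size factors, DESeq2 1.42.0, no filter, blocks, single batches and leaving out each library. For SUDHL4 the last was run only in the fit of both lines. Tests were run on simulated data first.

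All 10 members are named. From other lists, up to 5 called genes of smallest p per comparison are named, and GNAI2 and the markers not called were chosen after their values were seen. Some genes that this rule names are not reported here. Members and lists were chosen with earlier results of these data known. Likeness to RGS13 used log2 CPM with a prior count of 2, with TMM scaling over the 18 OCI-Ly7 libraries and without it within groups. Replicate numbers did not pair the libraries (correlations of deviations from -0.61 to 0.58).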

Additional observations from a re-analysis of the deposited data

Results flagged for a closer look

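Within groups of 4 or more OCI-Ly7 libraries, 5 of 30 sets of values had 1 library far from the others by Dixon's test, where chance gives about 1 in 20. RGS2 was lowest in POU2AF1 knockdown replicate 1, at 11.4 TPM, with the next at 16.6 TPM. RGS14 was lowest in the same library, at 21.6 TPM, with the next at 31.4 TPM, and that library had the 25.8% mitochondrial share. RGS3 was highest in POU2AF1 knockdown replicate 6, at 12.9 TPM, with the next at 9.54 TPM. RGS2 was highest in POU2F2 knockdown replicate 1, at 36.7 TPM, with the next at 19.3 TPM, and this is the only library with the mark s1. RGS19 was highest in POU2F2 knockdown replicate 3, at 70.6 TPM, with the next at 47.0 TPM, and this is the batch 2 library without a series mark. The part of these library properties in the values was not tested.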

How the results depend on the processing

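No fold change of the 10 genes that was called turned its direction under any alternative run. Of the 10 genes, 1 was called with POU2AF1 knockdown in OCI-Ly7, 3 with series marks as blocks, 0 in batch 2 alone, and 0 to 1 when 1 library was left out (0 without control replicate 1). Between the knockdowns in OCI-Ly7 the 1 call became 0 with the replicate number as a block, 0 in batch 2 alone and 0 to 1 when 1 library was left out. In SUDHL4 the 6, 2 and 5 calls all became 0 in the fit of both lines. Runs without 1 library were made only in that fit and called none either, so they are no separate check of the line's own fit. DESeq2 made 1 of the 2 calls for POU2F2 knockdown. For the line difference in the POU2AF1 response, 0 calls became 1 with DESeq2 and 2 with series marks as blocks, a fit chosen after seeing the data. Between control cells the 2 calls became 2 to 3.

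The replicate numbers do not pair the libraries. With the number as a block, RGS13 was at -1.25 with POU2AF1 knockdown in OCI-Ly7 (adjusted p = 0.0043) and at 0.78 between the knockdowns (adjusted p = 0.11), and 742 genes were called in place of 142. No paired analysis was possible in SUDHL4 because POU2AF1 knockdown and control held 1 library each.

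Counts over all genes moved by over 1.5 times as follows. For POU2AF1 knockdown in OCI-Ly7, 142 became 327 with DESeq2, 894 with series marks as blocks, 24 in batch 1, 7 in batch 2 and 8 to 182 without 1 library. For POU2F2 knockdown, 0 became 5 with DESeq2, 13 with series marks, 1 in the fit of both lines, 1 with replicate 3 placed in batch 1 and 0 to 1 without 1 library. Between these knockdowns, 26 became 85, 201 with series marks, 4 in batch 2, 120 with replicate 3 in batch 1 and 3 to 33. In SUDHL4, 6247 became 3398 with DESeq2, 314 in the fit of both lines and 245 without 1 library; 1247 became 397, 18 and 5 to 18; and 4446 became 2224, 37 and 5 to 37. For the POU2AF1 response, 151 became 571 with DESeq2, 1951 with series marks and 89 to 264. For the POU2F2 response, 2 became 29 with DESeq2, 4 with no filter, 42 with series marks and 0 to 5. Between control cells the count stayed within 1.5 times, with 4448 becoming 3025 to 4842 without 1 library. The SUDHL4 runs without 1 library were fits of both lines, so they are no separate check of the line's own fit. The causes of these moves were not tested. Reads limit RGS1 and, in OCI-Ly7, RGS18.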
